A study of Mus musculus with 1 sample.

Results

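Hemoglobin-rich barcodes of the fetal mouse testis were described in 1 droplet library. They were chosen by their hemoglobin share, as all barcodes in which Hba-a1, Hba-a2, Hba-x, Hbb-bs, Hbb-bt and Hbb-y together took at least 25% of the UMIs (unique molecular identifiers, each marking 1 captured RNA molecule), with no filter on the number of genes. There were 440 of them among 5421 barcodes (8.12%). By the number of genes with a UMI, 47 were gene-rich (1000 genes or more), 240 were intermediate (from 200 to under 1000 genes) and 153 were gene-poor (under 200 genes). The rule calls the first range nucleated, but nuclei were not measured. The library came from a pooled suspension of testes, labelled embryonic day 14.5 and wild type. The labels give 12 controls, which the study's text counts as 12 testes. The study instead names embryonic days 13.5 and 14.5, and gives the controls as Cre-negative fetuses with floxed Nr5a1 (Nr5a1 L2/L2) on a mixed C57BL/6 and 129/SvPass background. The library of mutants lacking Nr5a1 in Sertoli cells was not used here. With 1 library there was no replicate and no test, and every interval below is an exact 95% interval that covers counting error only.

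Red blood cells of the mouse fetus arise in successive waves. Primitive erythroid cells from the yolk sac carry embryonic globins (Hbb-y, Hbb-bh1 and Hba-x), circulate with a nucleus and lose it late, whereas definitive cells mature in the fetal liver and carry the adult globins Hba-a1, Hba-a2, Hbb-bs and Hbb-bt. A maturing erythroblast makes haem and globin, builds the spectrin and band 3 membrane skeleton, stops dividing and expels its nucleus to become a reticulocyte, which clears its remaining mitochondria and ribosomes as it matures. Erythroid cells are not made in the testis and reach it with the blood.

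The globin genes that define the barcodes lie in a pair of clusters, and those of the beta cluster, on chromosome 7, carried the split described below. Their 250 bases upstream of the RefSeq start are shown because the adult genes Hbb-bs and Hbb-bt and the embryonic gene Hbb-y differed in their shares between barcodes. All lie on the minus strand of GRCm38.p6 and are printed 5′ to 3′ in the direction of the gene. Capitals mark matches on either strand to CCACACCC (the box bound by KLF1 in adult beta globin), to AGATAA or else TGATAA (letters that GATA1 can bind), and to CCAAT.
Hbb-bs, chr7:103827929-103828178: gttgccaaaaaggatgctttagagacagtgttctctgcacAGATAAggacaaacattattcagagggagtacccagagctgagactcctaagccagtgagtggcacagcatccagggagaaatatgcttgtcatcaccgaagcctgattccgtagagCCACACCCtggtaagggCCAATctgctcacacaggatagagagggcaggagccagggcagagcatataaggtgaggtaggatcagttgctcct
Hbb-bt, chr7:103813924-103814173: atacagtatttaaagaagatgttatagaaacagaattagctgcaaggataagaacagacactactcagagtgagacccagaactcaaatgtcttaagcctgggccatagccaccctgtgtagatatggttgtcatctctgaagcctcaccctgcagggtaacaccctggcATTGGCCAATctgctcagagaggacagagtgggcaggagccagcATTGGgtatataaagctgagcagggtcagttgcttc
Hbb-y, chr7:103853208-103853457: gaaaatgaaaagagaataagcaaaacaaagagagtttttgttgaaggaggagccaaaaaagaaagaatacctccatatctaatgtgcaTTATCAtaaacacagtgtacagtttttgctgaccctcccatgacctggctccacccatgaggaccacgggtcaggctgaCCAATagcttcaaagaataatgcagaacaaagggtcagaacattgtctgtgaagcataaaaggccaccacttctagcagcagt
The Hbb-bs window held CCACACCC starting 93 bases before the start, with AGATAA at 210 and CCAAT at 76. The windows of Hbb-bt and Hbb-y held no CCACACCC. Hbb-bt held 3 CCAAT matches, between 80 and 36 bases before the start, of which a pair lie end to end on opposite strands, and Hbb-y held CCAAT at 83 and TGATAA on the reverse strand at 162. Among 32817 RefSeq upstream windows of the same length, 3.19% held CCACACCC, 9.99% AGATAA, 7.95% TGATAA and 33.8% CCAAT. A match is a description of the letters and not a measured binding site. The upstream windows of Hba-a1 and Hba-a2 on chromosome 11 shared a run of 247 identical bases, and near-identical transcripts of the Hba-a1 and Hba-a2 pair and of the Hbb-bs and Hbb-bt pair can share reads, so the split within each pair is uncertain. The mixed strain background adds to this, because C57BL/6 and 129 carry different adult Hbb haplotypes.

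The hemoglobin share chose the barcodes and is given as a description. Of all 5421 barcodes, 4952 had under 1%, 29 had between 1% and 25%, and 225 had 90% or more. The lowest shares inside the rule were 26.4%, 26.7% and 29.7%, and the highest outside were 24.8%, 24.5% and 23.2%. Gene-rich barcodes had shares from 26.4 to 80.1% (median 43.2%), intermediate ones from 45.9 to 95.4% (89.3%) and gene-poor ones from 46.8 to 96.8% (93.8%). In the plot of hemoglobin share against genes the rule's line crosses a continuous run of gene-rich barcodes, while under 1000 genes a single other barcode exceeded 5%.

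**Figure D1:**
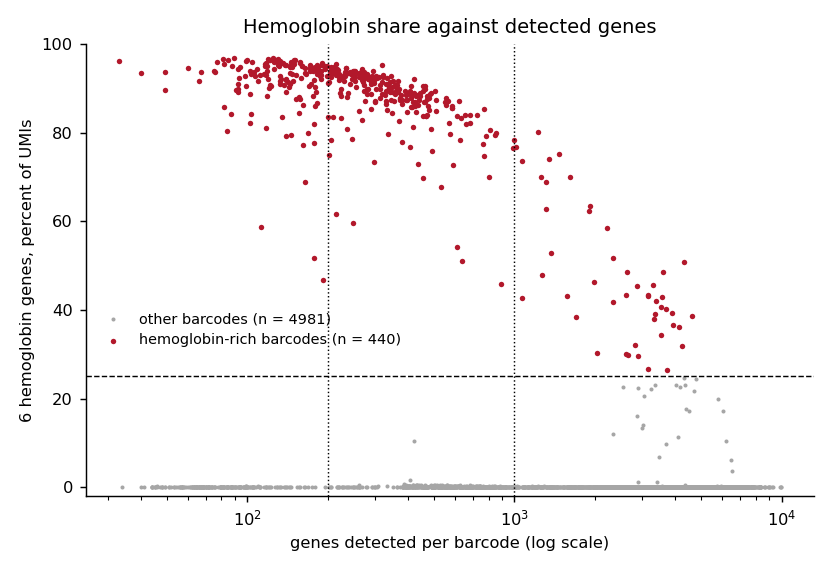
Percent of each barcode's UMIs in the 6 hemoglobin genes against its number of detected genes (log scale), for 440 hemoglobin-rich and 4981 other barcodes. The dashed line marks 25% and the dotted lines 200 and 1000 genes; the share is highest in barcodes under 1000 genes and lower where more genes were detected.

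The 440 barcodes held 3785757 UMIs, 5.21% of the 72595083 UMIs of the library, and 721795 of theirs lay outside the globin genes. Gene-poor barcodes had a median of 4369 UMIs and 137 genes, intermediate ones 10022.5 UMIs and 329 genes, gene-rich ones 15834 UMIs and 2629 genes, and other gene-rich barcodes 12337 UMIs and 3632 genes. Thinned to 500 UMIs per barcode, with none left out, the medians were 28, 43.5, 221 and 363 genes in the same order. Since the ranges were set by gene number and the 500 UMIs include hemoglobin, this order was fixed by the choice.

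Gene-poor hemoglobin-rich barcodes differed in makeup from the library's other gene-poor barcodes. Mitochondrial genes took 0.961% (0.938 to 0.984%) of all their UMIs, a share that the hemoglobin rule keeps low, with a median of 0.284% and none over 50%. Of their UMIs outside globin, mitochondrial genes took 14.6%, against 6.79% in gene-rich hemoglobin-rich and 8.99% in other gene-rich barcodes. However, 3166 of the 6780 mitochondrial UMIs lay in 3 of the 153 barcodes, and without these 3, left out after the values were seen, the share was 8.58%. The median over the 153 was 4.76%, against 5.19% and 7.18%. In the 219 other gene-poor barcodes they took 97.5% of all UMIs, and 217 of these had over 90%. Hemoglobin made up 0.0230% (0.0196 to 0.0268%) of the UMIs there. On a scale of UMIs per 1000000 UMIs outside the 10 globin genes (CPM below), Alas2, the enzyme of the first step of haem synthesis in red cells, was at 13461 CPM (95% 12426 to 14560.2, 624 UMIs) in the gene-poor hemoglobin-rich barcodes against 0 UMIs in the other gene-poor barcodes, at least 3160.1-fold higher with a floor of 3 UMIs over the group. The ferritin light chain gene Ftl1 had 4302 UMIs against 50. Of the 20 measured iron and haem transport genes, 12 were at least 2-fold higher and none lower. The background was 30.1% higher and 0.953% lower of 13543 genes, but 94.6% and 4.76% of the 315 genes with 20 UMIs or more in the pair, so the count of the list is no result about it. Since mitochondrial genes fill the other group, this scale lifts every other gene. Relative to all UMIs, 6 of the 20 remained 2-fold higher (background 50.8% higher and 9.21% lower of the 315), and Alas2 and Ftl1 still differed by 7.47 and 6.33 on the log2 scale.

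The label was checked with 14 erythroid genes the rule did not use (among them Alas2, Gata1, Klf1, Slc4a1 and spectrins) and 53 markers of Sertoli, Leydig, germ, interstitial, peritubular myoid, endothelial and macrophage cells. The gene-rich hemoglobin-rich barcodes were of more than 1 kind. In 31 of 47 at least as many testis markers as erythroid genes had a UMI (32 after thinning to 2000 UMIs). Splitting them after these values were seen gave 11 barcodes with at most 2 testis markers, 7 with over 2 testis markers and 9 or more erythroid genes, and 29 with over 2 testis markers and under 9 erythroid genes. Although erythroid genes were not used to pick the 11, all of them held 9 to 13 of the 14 (median 12). Of 4254 other gene-rich barcodes, 15 held 9 or more. Below 1000 genes, at least as many testis markers as erythroid genes had a UMI in 54 of the 240 intermediate and 79 of the 153 gene-poor barcodes. Testis markers were few there, with at most 2 in 209 of the 240 intermediate and 148 of the 153 gene-poor barcodes. Erythroid genes were fewer too: 13 intermediate and no gene-poor barcodes held 9 or more, and 10 and 40 held none.

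The 29 barcodes carried 7 to 18 testis markers (median 10, against 11 in other gene-rich barcodes) and 0 to 8 erythroid genes (median 2). By the list with most genes detected, 21 led with interstitial, 6 with Sertoli and 2 with Leydig markers, and none of the 10 macrophage genes had a UMI. Even so, Alas2 reached 776 CPM (95% 678 to 885, 223 UMIs), above the 7.44 CPM of other gene-rich barcodes. Of the membrane and skeleton list 11 of 22 genes were at least 2-fold higher in the 29 (background 2.1% of all genes higher and 9.14% lower), but 1 of 19 erythroid transcription factors. These barcodes hold hemoglobin together with a testis profile, and whether 2 cells shared a droplet was not tested, since no doublet caller was run. With 18 of 47 barcodes holding 9 or more erythroid genes, the erythroid label fitted a minority of the gene-rich range, and the barcodes are called by their hemoglobin rule.

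The 7 barcodes with over 2 testis markers and 9 or more erythroid genes held 4 to 15 testis markers. Among these 7, 1 held all 10 macrophage genes and 9 of the 14 erythroid genes. It had a hemoglobin share of 41.9% and 23945 UMIs. All 330 macrophage UMIs of the 47 barcodes lay in this 1 barcode, led by the complement gene C1qb with 84 UMIs. The group of 7 also held 38 UMIs of Pf4, a platelet factor that fetal macrophages can also express. No other gene-rich hemoglobin-rich barcode had a UMI of a macrophage gene, while 32 of 4254 other gene-rich barcodes had 3 or more of these genes.

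**Figure D2:**
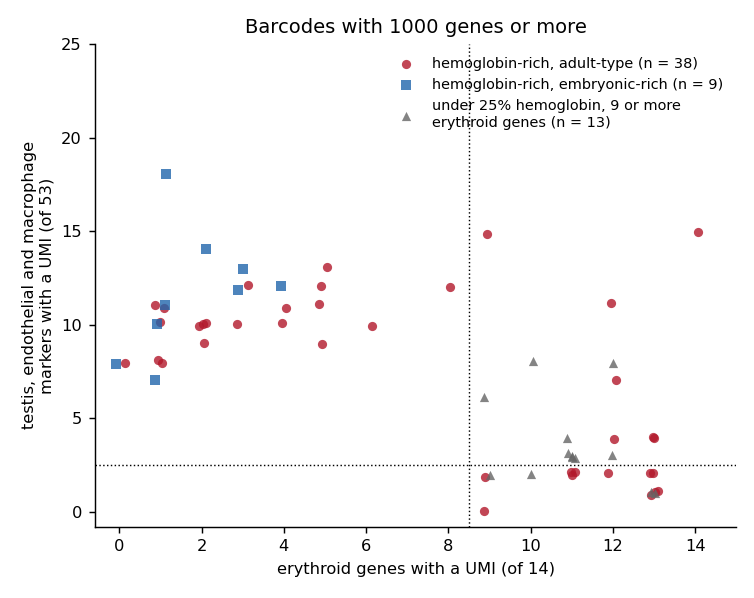
Number of 53 testis, endothelial and macrophage markers with a UMI (y) against number of 14 erythroid genes with a UMI (x) in barcodes with 1000 genes or more, 1 point per barcode, slightly displaced, with dotted lines just above 2 testis markers and just below 9 erythroid genes. All 9 squares (embryonic-rich) lie left of 9 erythroid genes and above 2 testis markers.

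Hemoglobin-rich barcodes fell into those with almost no embryonic beta-like globin and those with a high share of it beside some adult globin, with few between. The embryonic share, Hbb-y, Hbb-bh1 and Hbb-bh2 as a part of all Hbb UMIs, was 0 in 278 barcodes and under 1% in 64 more. Just 1 lay between 1% and 5%, none between 5% and 20%, 2 between 20% and 50%, and the other 95 at 60% or above. Taking 20% as the limit gave 97 embryonic-rich and 343 adult-type barcodes. Limits of 10% and 50%, tried after the values were seen, gave 97 and 95. The embryonic-rich barcodes were 9 of the 47 gene-rich, 66 of the 240 intermediate and 22 of the 153 gene-poor barcodes. They held 0 to 5 of the 14 erythroid genes (median 1), against 0 to 14 (median 2) in adult-type barcodes. The limit of 9 erythroid genes was thus reached in adult-type barcodes alone. Summed over all 440, the embryonic share was 16.1% (16.0 to 16.1%).

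**Figure D3:**
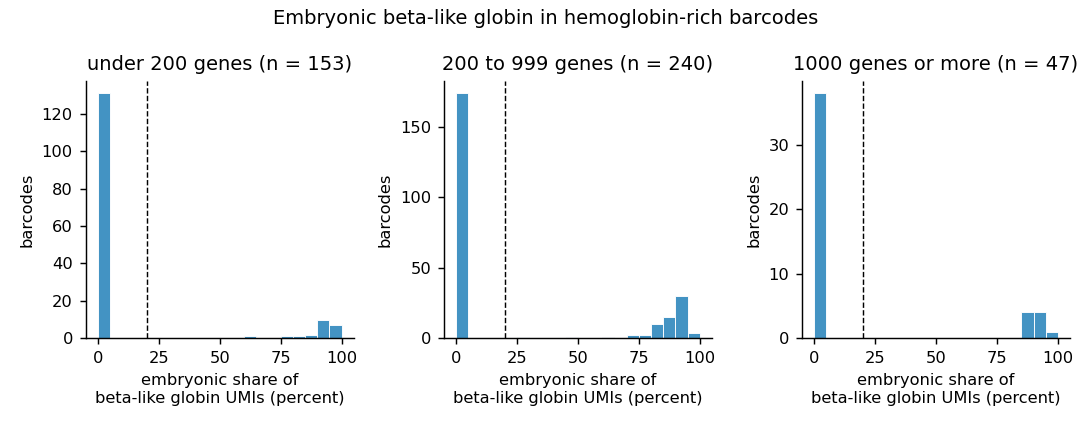
Histograms of the embryonic share of beta-like globin UMIs (percent, bins of 5) over barcodes in the 3 gene ranges, with the dashed line at 20%. Each range has barcodes near 0 and above 60% and almost none between.

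Hbb-y, the major embryonic beta-like gene, had 357380 UMIs in the 97 embryonic-rich barcodes, a mean of 3684 per barcode. In the 343 adult-type barcodes it had 94 UMIs, 0.274 per barcode, beside 0.202 per barcode in the 4952 other barcodes under 1% hemoglobin. The Hbb-y of adult-type barcodes thus stood near the level found in barcodes of other cells, and 36 of its 94 UMIs lay in 1 barcode. In the reverse direction adult beta globin was not at such a level in the embryonic-rich barcodes. Hbb-bs averaged 411 and Hbb-bt 184 UMIs per barcode there, against 1.40 and 0.442 in the other barcodes under 1%, and both were found in 96 of 97. Within the embryonic-rich barcodes the embryonic share ran from 27.3 to 97.7% with a median of 91.3%.

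Hba-x, the embryonic alpha-like gene, went with Hbb-y. It made up 25.8% of alpha-like UMIs in the embryonic-rich barcodes (41533 UMIs) and 0.00209% in the adult-type (14 UMIs). Per embryonic-rich barcode its share ran from 5.18 to 84.3% (median 25.7%). By these medians alpha globin came mostly from the adult genes, while the median embryonic share of beta-like globin was 91.3%. The median Hba-x share was 22.6% in gene-rich, 25.3% in intermediate and 47.3% in gene-poor embryonic-rich barcodes. Both Hba-x and Hbb-y were used by the rule, so these values describe the barcodes and test nothing.

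Hbb-bh1, an embryonic beta-like gene, was scarce everywhere. The hemoglobin rule did not use it, but the embryonic share that split the barcodes did. It had 866 UMIs in 79 of the 97 embryonic-rich barcodes, 0.150% of their globin UMIs. In adult-type barcodes its 193 UMIs lay in 19 of 343, of which 87 and 46 came from 2 barcodes and 174 from 5. These adult-type barcodes had more Hbb-bh1 than Hbb-y in sum (193 against 94), whereas embryonic-rich barcodes had 357380 Hbb-y UMIs beside 866 of Hbb-bh1. Hbb-bh2 had 2 UMIs in all. Hbq1b, a theta-like alpha gene, was found in 10 of the 11 gene-rich barcodes with at most 2 testis markers (34 UMIs, 0.0348% of globin UMIs) and in 47 of all 343 adult-type barcodes (0.00366%).

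Alpha-like genes took 27.1% (27.1 to 27.2%) of globin UMIs over the 440 barcodes. The share was 26.9% in adult-type and 27.9% in embryonic-rich barcodes, and 37.3% (36.8 to 37.8%) in the 22 embryonic-rich gene-poor ones, where single barcodes ran from 17.7 to 96.0%. These are 3′ UMI counts, in which a molecule counts once whatever its length, and they measure no protein. Within adult beta globin, Hbb-bt took 33.5% (33.1 to 33.9%) in the 11 gene-rich barcodes with few testis markers, 28.3% (28.2 to 28.4%) in intermediate adult-type and 20.6% (20.4 to 20.7%) in gene-poor adult-type barcodes. The ranges over barcodes overlapped, from 24.1 to 40.4%, from 3.58 to 40.2% and from 3.01 to 36.1%. Hba-a2 took 44.0% of adult alpha UMIs in adult-type and 35.0% in embryonic-rich barcodes.

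The first comparison put all 47 gene-rich hemoglobin-rich barcodes beside the 4254 other gene-rich barcodes, on summed non-globin CPM with 5 added to both. Of 13543 genes with at least 50 UMIs in the library, 530 (3.91%) were at least 2-fold higher and 1002 (7.4%) at least 2-fold lower, and the median gene stood at -0.22 on the log2 scale (-0.75 relative to all UMIs). All 8 haem synthesis genes, 21 of 22 membrane and skeleton genes, 11 of 20 iron and haem transport genes and 13 of 19 erythroid transcription factors were higher by that measure. On all UMIs these counts were 8, 20, 9 and 10 (background 1.65% higher and 31.5% lower). Among the largest ratios were the mitochondrial iron carrier Slc25a37 at 1597 CPM (95% 1477 to 1724, 654 UMIs) against 10.6 CPM, and Alas2 at 1211 CPM (95% 1107 to 1322, 496 UMIs) against 7.44.

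Also among the 15 largest ratios upward were Slc4a1, the band 3 anion exchanger (log2 ratio 6.59), the carbonic anhydrase Car2 (6.39), Hemgn, a nuclear protein of blood cells (6.01), and Trim10 (5.57). The metallothioneins Mt1 and Mt2 followed at 5.46 and 5.32, then the Rhesus blood group gene Rhd (5.25), Tmcc2 (5.03), Bpgm, which makes the 2,3-bisphosphoglycerate that lowers the oxygen affinity of hemoglobin (4.95), and the ubiquitin conjugating enzyme gene Ube2l6 (4.84). The 10 largest ratios downward were led by germ cell genes. Dppa5a had 1 UMI against 19272 UMIs, and Dppa4, Pou5f1, Ddx4, Rbmxl2 and Tex19.1 had 0. All 7 germ markers were lower, with 7 UMIs in the 47 barcodes. The 8 interstitial markers by contrast were neither 2-fold higher nor lower, at 3540 CPM summed against 3094 CPM, with 1327 of their 1450 UMIs in the 29 barcodes.

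In the 11 gene-rich barcodes with at most 2 testis markers the erythroid genes stood higher still. All 8 haem synthesis genes, 21 of 22 membrane and skeleton genes, 14 of 19 transcription factors and 15 of 18 organelle clearance genes were at least 2-fold above other gene-rich barcodes (background 9.76% higher and 50.7% lower, median gene -1.03). Car2 reached 9111 CPM (95% 8309 to 9969, 474 UMIs) and Slc4a1 3172 CPM (95% 2706 to 3694, 165 UMIs). The master erythroid factors were present at low counts, with Klf1 at 846 CPM (95% 615 to 1135, 44 UMIs), Gata1 at 231 CPM (95% 119 to 403, 12 UMIs), Tal1 at 577 CPM (95% 389 to 823, 30 UMIs) and Nfe2 at 423 CPM (95% 265 to 640.2, 22 UMIs). The exceptions in the transcription factor list were Gata2, Myb and Bcl11a, factors of progenitors and early erythroblasts, which had 0 UMIs, and the cofactor genes Cbfa2t3 with 1 and Ldb1 with 4 UMIs. The erythropoietin receptor Epor had 13 UMIs, whereas Kit, Cd34 and Flt3 had 0. Since these 11 barcodes were chosen for few testis markers, their low testis genes (Cyp17a1 and Fdx1 at 0 UMIs) were fixed by the choice. Other genes of the downward list are not on any marker list and were also at 0, such as Hspe1 (84623 UMIs in other gene-rich barcodes, at least 21.8-fold lower), a mitochondrial chaperonin subunit, and the nucleotide carrier Slc25a4 (at least 11.6-fold lower).

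Barcodes with many erythroid genes also lay below the hemoglobin line. With 9 or more of the 14 erythroid genes and more of these than testis markers, 13 barcodes under 25% were found, a group chosen after the values were seen. Their hemoglobin share ran from 0.172 to 23.0% (median 9.77%), with none between 1.24% and 9.77%. They had a median of 3367 genes and 18296 UMIs. The largest barcodes, with 55140 and 53657 UMIs, held 8 testis markers each and hemoglobin shares of 0.172% and 0.211%. They weigh more than the others in the sums of the group. Ribosomal protein genes took 29.0% of their non-globin UMIs, against 15.4% in the 11 hemoglobin-rich ones.

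Against the 13 low-hemoglobin barcodes, whose erythroid genes were fixed by the choice, the 11 hemoglobin-rich ones had more RNA of the haem synthesis and membrane lists on the non-globin scale. Alas2 was at 177 CPM (95% 131 to 235, 48 UMIs) in the 13 and 2864 CPM (95% 2423 to 3363, 149 UMIs) in the 11, and the glucose transporter gene Slc2a1 at 44.3 CPM (95% 22.9 to 77.5, 12 UMIs) and 2229.7 CPM (95% 1842 to 2674, 116 UMIs). All 8 haem synthesis genes and 20 of 22 membrane genes were at least 2-fold higher in the 11 (background 9.77% higher and 28% lower, or 18.2% and 36.1% of the 2319 genes with 20 UMIs or more in the pair). Relative to all UMIs these counts were 2 and 8 (4.23% of the 2319 genes higher and 70.4% lower). Bcl11a had 43 UMIs and Myb 7 UMIs in the 13 and 0 in the 11. Of 22 cell cycle genes 8 were at least 2-fold higher and 7 lower in the 11, and on all UMIs 3 and 10. Among those lower, the replication helicase gene Mcm3 was at 2 UMIs against 87 UMIs and Mcm6 at 3 UMIs against 73 UMIs. The mitotic genes Mki67 at 2806 CPM (95% 2369.6 to 3300.3, 146 UMIs) against 443 CPM (95% 368 to 530.2, 120 UMIs) and Ube2c, which works with the anaphase-promoting complex, at 4440.2 CPM (95% 3886 to 5051, 231 UMIs) against 340.0 CPM (95% 274 to 417, 92 UMIs) were higher, though 95 of the 231 Ube2c UMIs in the 11 lay in 1 barcode. The genes of the nucleolar proteins FBL and NOP58, among the 10 largest ratios downward, had 0 UMIs in the 11 and 86 UMIs (Fbl) and 97 UMIs (Nop58) in the 13. Cdk4 (100 UMIs) was at 0 as well, while Cdkn2d, an inhibitor of CDK4 and CDK6, was at 846 CPM (95% 615 to 1135, 44 UMIs) against 37.0 CPM (95% 17.7 to 68.0, 10 UMIs).

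From the 11 gene-rich barcodes to the 174 intermediate and 131 gene-poor adult-type barcodes, haem synthesis genes parted on the non-globin scale. Alas2 and Fech, the first and last enzymes, stood at 11048 CPM (95% 10576 to 11535, 2065 UMIs) and 4045 CPM (95% 3761 to 4344, 756 UMIs) in intermediate and 15362 CPM (95% 14179 to 16617, 623 UMIs) and 4414 CPM (95% 3791 to 5110.0, 179 UMIs) in gene-poor barcodes. Enzymes of the steps between were scarce in the gene-poor range. Alad went from 2672 CPM (95% 2246 to 3155, 139 UMIs) through 605 to 148 CPM (6 UMIs), and Cpox and Urod from 2883 and 2191 CPM to 0 UMIs, at least 39.0-fold and 29.6-fold lower than in the 11. Ppox and Uros were also at 0. Non-globin RNA made up a falling part of the UMIs, so the scale matters: per 1000000 of all UMIs Alas2 was at 995, 1183 and 938, within 2-fold. Fech fell on that scale, from 781 through 433 to 269, and Alad was lower on both scales, at 9.03 in gene-poor barcodes against 928 in the 11. Between intermediate and 11 gene-rich barcodes, 1 of the 8 was higher and 5 lower (background 22.9% and 22.3%, or 14.4% and 34.9% of the 1076 genes with 20 UMIs or more in the pair). Between gene-poor and intermediate barcodes 0 were higher and 6 lower (11.4% and 32.8%, or 3.11% and 43.1% of 836). Against the 11, on all UMIs, none of the 8 was higher and 7 were lower in gene-poor barcodes, but so were 90.2% of the 531 genes with 20 UMIs or more in that pair (0.377% higher), so this count is no result about the list.

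Bpgm was scarce in the 11 gene-rich barcodes and abundant below 1000 genes. It had 384 CPM (95% 235 to 594, 20 UMIs) in the former and 13364 CPM (95% 12846 to 13899, 2498 UMIs) in intermediate adult-type ones, a log2 difference of 5.10 (3.37 on all UMIs). It was found in 72.7% and 94.3% of barcodes, and after thinning to 2000 UMIs, which left out 2 shallower intermediate barcodes, in 27.3% and 89.5%, against 3.95% of other gene-rich barcodes. Of the organelle clearance list, the mitophagy receptor Bnip3l was at 749.6, 5366 and 5573 CPM in the 3 ranges, the autophagy gene Gabarapl2 at 923, 4478 and 4118, and Ube2l6 at 903, 3253 and 3649. Of 18 organelle clearance genes 8 were at least 2-fold higher and 5 lower in intermediate than in the 11 gene-rich barcodes (background 22.9% and 22.3%, or 14.4% and 34.9% of 1076), but on all UMIs 2 were higher and 8 lower (2.88% and 77.3% of the 1076), so the direction of this list depends on the scale.

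A ferritin gene, for iron storage, led the non-globin RNA in each range. Fth1 was first in the 11 gene-rich and the intermediate adult-type barcodes, and Ftl1 in the gene-poor adult-type ones. Ftl1 was at rank 5 in the 11. Fth1 took 2.44% and Ftl1 1.60% of the non-globin UMIs in the 11, 4.73% and 4.41% in the intermediate and 4.39% and 10.3% in the gene-poor adult-type ones. The transferrin receptor gene Tfrc, which takes iron in, went from 1711 CPM (95% 1374 to 2105, 89 UMIs) through 273 CPM to 0 UMIs. Slc25a37, which brings iron into mitochondria, was at 6382, 5612 and 4365 CPM. Per 1000000 of all UMIs Fth1 was at 8492, 5065 and 2678 in the 3 ranges, Ftl1 at 5561, 4725 and 6269, and Slc25a37 at 2216, 601 and 266, so Fth1 rose on the non-globin scale alone. Of the 20 iron and haem transport genes, 1 was at least 2-fold higher and 14 lower in gene-poor barcodes than in the 11. The background on this non-globin scale was 11.6% higher and 25.7% lower, or 14.3% and 51.2% of the 531 genes with 20 UMIs or more. In intermediate barcodes 2 were higher and 10 lower (background 22.9% and 22.3%, or 14.4% and 34.9% of 1076). On all UMIs none of the 20 was higher and 16 were lower in gene-poor barcodes than in the 11, near the background of that pair (90.2% of 531 genes lower).

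Many membrane genes were lower below 1000 genes, and most in the gene-poor range. In intermediate barcodes 2 of the 22 were at least 2-fold higher and 11 lower than in the 11 (background 22.9% and 22.3%, or 14.4% and 34.9% of 1076), and on all UMIs 0 and 17, where 2.88% of the 1076 were higher and 77.3% lower, so the all-UMI count is no result about the list. Slc4a1 was at 3172, 2317 and 173 CPM in the 3 ranges, and at 1102, 248 and 10.5 per 1000000 of all UMIs. Rhag, Icam4, Ermap and Epb42 had 0 UMIs in the 131 gene-poor barcodes. The skeleton gene Epb41 was at 961, 2846 and 2441 CPM, but at 334, 305 and 149 per 1000000 of all UMIs. Of the 22 genes none was 2-fold higher and 18 were lower in gene-poor than in intermediate adult-type barcodes (background 11.4% and 32.8%, or 3.11% and 43.1% of 836).

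Most transcription factor and cell cycle genes were lower below 1000 genes, though both lists still had UMIs there. In intermediate adult-type barcodes 14 of 19 factors and 21 of 22 cell cycle genes were at least 2-fold lower than in the 11 gene-rich ones, and none was higher (background 22.9% higher and 22.3% lower, or 14.4% and 34.9% of 1076). On all UMIs 16 and 21 were lower, as were 77.3% of the 1076 genes. The factors still had 332 UMIs and the cell cycle genes 230 in the intermediate barcodes, with 6 and 3 of the genes at 0. In gene-poor adult-type barcodes each list had 25 UMIs, and 13 of 19 factors and 9 of 22 cell cycle genes were at 0. Outside the cell cycle list, Ube2c stood at 4440.2 CPM in the 11 and 4307 CPM in the intermediate barcodes, and Cdc25b, a phosphatase that activates cyclin-dependent kinases, at 749.6 and 926 CPM. Per 1000000 of all UMIs both were lower in the intermediate barcodes, Ube2c at 461 against 1542 and Cdc25b at 99.1 against 260.4. Klf1 was found in 90.9% of the 11 and 8.62% of the intermediate barcodes, and after thinning to 2000 UMIs in 36.4% and 2.33%, against 0.425% of other gene-rich barcodes. Mki67 went from 2806 CPM (95% 2369.6 to 3300.3, 146 UMIs) to 294 CPM (95% 222 to 383, 55 UMIs), Top2a from 1211 to 21.4 CPM and the linker histone gene H1f5 from 1461 to 21.4 CPM. However, 33 of the 63 Top2a UMIs in the 11 lay in 1 barcode. In the plot of gene levels, on the non-globin scale, Klf1 and Mki67 drop at the border of 1000 genes, while Alas2, Bpgm and Bnip3l do not.

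**Figure D4:**
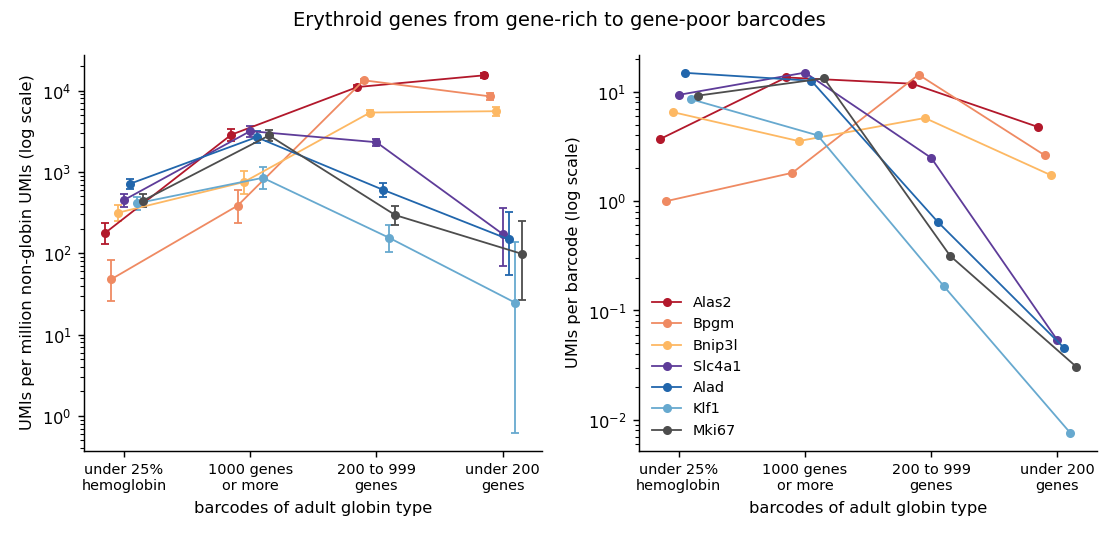
Levels of 7 erythroid and cell cycle genes in 13 barcodes under 25% hemoglobin with 9 or more erythroid genes, the 11 gene-rich barcodes with at most 2 testis markers, and the intermediate (174) and gene-poor (131) adult-type barcodes, as CPM (per 1000000 non-globin UMIs) with exact 95% Poisson intervals on the left and mean UMIs per barcode on the right, both on log scales with lines joining the same gene. Bpgm is highest in barcodes with 200 to under 1000 genes, and Alad, Klf1 and Mki67 are lowest under 200 genes.

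The comparison of all 153 gene-poor with all 47 gene-rich hemoglobin-rich barcodes took the mixed gene-rich group as its reference. Of 13543 genes 4.81% were at least 2-fold higher and 50.9% lower (4.54% and 71.2% of the 3219 with 20 UMIs or more in the pair). Among the 15 largest ratios upward were Lars2, a mitochondrial leucyl-tRNA synthetase gene (log2 4.21 with 73 and 33 UMIs), the ubiquitin ligase gene Mkrn1 (3.92), Rec114 and the haem transporter gene Slc48a1, with Alas2, Ftl1, Bpgm, March2, Slc25a39, Rfk, Ube2l6, Bnip3l, Junb and Isca1 further down. On all UMIs only Lars2 of the 15 remained 2-fold higher, so 14 of them are high against other non-globin RNA and not against hemoglobin. Cpox, Urod, Cst3, Cxcl12, Tspo, Tomm20, Snrpf, Pkdcc, Polr1d and Nusap1 had 0 UMIs in the gene-poor barcodes against 102 to 225 in the gene-rich.

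Beyond globin, embryonic-rich barcodes under 1000 genes (88) carried other RNAs than adult-type ones (305), a comparison added after the globin split was seen. Slc38a2, an amino acid transporter gene, was at 2289 CPM (95% 1978 to 2634, 194 UMIs) in embryonic-rich and 8.79 CPM (95% 1.06 to 31.8, 2 UMIs) in adult-type barcodes, and was found in 66 of the 88. Hmox1, which breaks down haem, was at 1192 CPM (95% 971 to 1448, 101 UMIs) against 8.79 CPM (95% 1.06 to 31.8, 2 UMIs), and the membrane protein gene Pdzk1ip1 at 1227 CPM (95% 1003 to 1487, 104 UMIs) against 35.2 CPM (95% 15.2 to 69.3, 8 UMIs). Fam174b had 40 UMIs against 0, at least 35.8-fold higher. Slc38a2 and Hmox1 were not confined to embryonic-rich barcodes. Without thinning they were found in 73.3% and 39.4% of other gene-rich barcodes, against 80.3% and 30.3% of embryonic-rich intermediate ones. After thinning to an equal number of UMIs per barcode, Slc38a2 was found in 22.4% against 42.9% and Hmox1 in 8.41% against 14.3%, in the same order.

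Several of the other genes high in embryonic-rich barcodes are known for stress responses, growth arrest and cell death. Junb had 71 UMIs against 1, Bbc3 32 UMIs against 2, Bax 48 UMIs against 5 and Gadd45g 47 UMIs against 4. Ddit3 had 56 UMIs against 2, but 46.4% of them lay in 1 barcode. Phf23, Bcor, Brd2, Tspan18, Cited2 and Cstb completed the 15 largest ratios upward. Tspan18 was found in 7 embryonic-rich barcodes, and 14 of its 20 UMIs lay in 1 of them. Junb and Ddit3 also occurred in other gene-rich barcodes, in 21.3% and 20.1% without thinning, against 36.4% and 30.3% of embryonic-rich intermediate ones. After thinning to an equal number of UMIs per barcode, Junb was found in 5.48% against 17.5% and Ddit3 in 3.09% against 17.5%, in the same order. Within the intermediate range alone, all 15 and all 10 of the downward list were at least 2-fold apart, on both scales, but these barcodes (66 and 174) are part of those the genes were picked on, so this is no independent repeat. No list of stress genes was set up for this, so no theme is claimed.

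Haem synthesis and membrane genes were low in the embryonic-rich barcodes. All 8 haem synthesis genes and 16 of 22 membrane genes were at least 2-fold lower (background 14.5% higher and 16.6% lower, or 21.3% and 36.5% of the 1084 genes with 20 UMIs or more in the pair), and 6 and 11 on all UMIs (27.6% higher and 20.5% lower of the 1084). In the intermediate range, where depth was closer than in the gene-poor range (median 8583 against 10254.5 UMIs), Alas2 was at 1811 CPM (95% 1526 to 2133, 143 UMIs) against 11048 CPM (95% 10576 to 11535, 2065 UMIs) and was found in 66.7% against 98.3% of barcodes, or 36.5% against 89.0% after thinning to 2000 UMIs (1.23% of other gene-rich barcodes). Slc25a37 was found in 6.35% against 58.7% after thinning, and in 1.54% of other gene-rich barcodes. Cmas, for sialic acid activation, had 0 UMIs in the 88 against 380 (at least 47.2-fold lower), the membrane scaffold gene Mpp1 0 against 214 (26.6-fold), Cd47, a surface signal against engulfment, 0 against 159 (19.8-fold), and Alad 0 against 119 (14.8-fold). Dhrs11, Ssx2ip, Specc1 and Smox were also at 0.

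Some erythroid genes did not follow. Tal1 was higher in the embryonic-rich intermediate barcodes, at 379.9 CPM (95% 256 to 542, 30 UMIs) against 37.5 CPM (95% 15.1 to 77.2, 7 UMIs). Fth1 took 12.3% of their non-globin UMIs against 4.73%, and ribosomal protein genes from 29.7 to 30.4% (95% interval) against 12.5 to 12.8%. Mitochondrial genes took 1.95% of non-globin UMIs in embryonic-rich and 11.5% in adult-type barcodes under 1000 genes, and 1.48% and 8.25% without the 3 barcodes of each group with most mitochondrial UMIs.

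**Figure D5:**
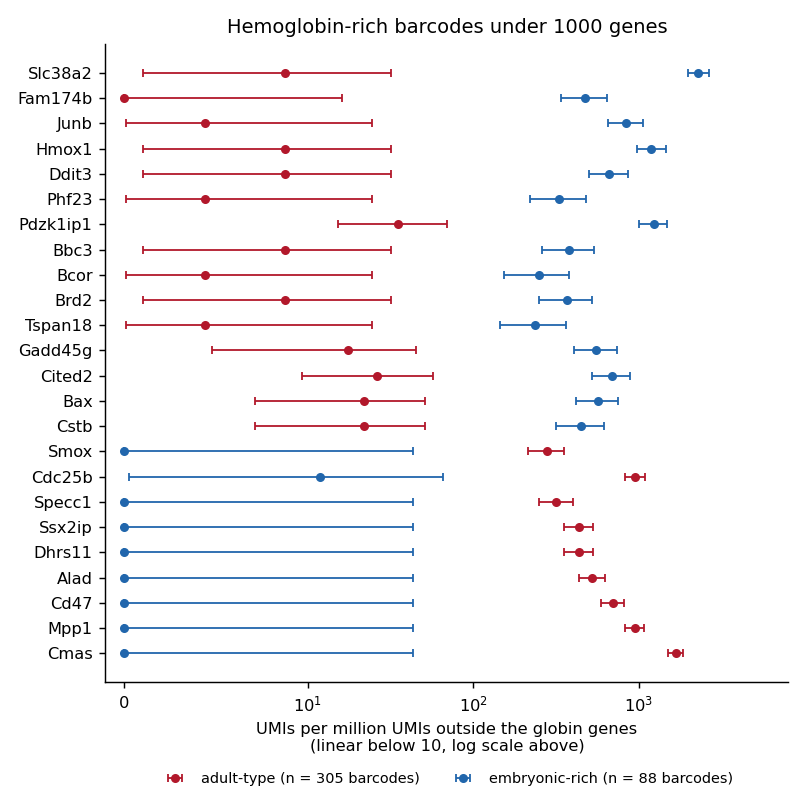
Levels, in CPM (per 1000000 non-globin UMIs), of the 15 genes with the largest ratio upward and 9 of the 10 with the largest ratio downward in embryonic-rich against adult-type hemoglobin-rich barcodes under 1000 genes, with points for group sums and bars for exact 95% Poisson intervals, on an axis that is linear below 10 and a log scale above. The intervals of the groups are apart for all genes drawn, which were chosen for their ratio.

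Among gene-rich barcodes the 9 embryonic-rich ones all lay in the group of 29 with a testis profile, so that their comparison with the 38 adult-type ones set testis-profile barcodes beside a mixture. Of 13543 genes 10.9% were at least 2-fold higher and 21.1% lower (4.54% and 16.9% of the 3104 with 20 UMIs or more in the pair), and 20 of 22 membrane genes and all 8 haem synthesis genes were lower. Hsd3b6, of the 3-beta-hydroxysteroid dehydrogenase family, led the ratios upward with 35 UMIs in 8 of the 9 against 1. Pdzk1ip1 (18 UMIs against 4 UMIs) and Hmox1 (17 UMIs against 6 UMIs) came next. Hemgn, Mt2, Tmcc2, Tfrc, St3gal5 and Icam4 had 0 UMIs in the 9.

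Hsd3b6 was scarce outside the hemoglobin-rich barcodes. It was at 2153 CPM (95% 1841 to 2502, 170 UMIs) in intermediate, 1896 CPM (95% 947 to 3393, 11 UMIs) in gene-poor and 377 CPM (95% 263 to 525, 35 UMIs) in gene-rich embryonic-rich barcodes, and at 182 CPM (95% 126 to 254, 34 UMIs) in intermediate adult-type ones. The 4254 other gene-rich barcodes held 15 UMIs (0.223 CPM), found in 7 of them. It was found in 49 of the 88 embryonic-rich barcodes under 1000 genes against 17 of the 305 adult-type. Hsd3b6 stands outside the fixed lists and entered by its ratio.

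Markers of other cells were scarce in the 11 gene-rich barcodes and below 1000 genes but not absent. Macrophage markers had 0 UMIs in the 11 gene-rich, the intermediate and the gene-poor barcodes, and megakaryocyte and platelet markers 3 UMIs there, all in embryonic-rich intermediate barcodes. In the 174 intermediate adult-type barcodes, Sertoli markers had 171 UMIs (915 CPM against 3005 in other gene-rich barcodes), Leydig markers 122 (653 against 3495) and interstitial markers 62 (332 against 3094). Cyp17a1, a Leydig enzyme gene, had 52 UMIs there, and 30 of its 58 UMIs in adult-type barcodes under 1000 genes lay in 1 barcode. Inha had 37 UMIs in adult-type barcodes under 1000 genes, of which 35 lay in 1 barcode. Their part in the results under 1000 genes was not tested. Hemoglobin in turn was found outside, at 0.0196% of the UMIs of the 4952 barcodes under 1%.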

How the data were processed

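Single cells of control fetal testes were captured with the 10x Genomics 3′ version 3 chemistry, and the deposited file is the authors' matrix of UMI counts per gene and barcode (whole numbers, not normalized), made with Cell Ranger (3.0.2 and 3.1.0 in the submitters' processing notes, 3.1.0 in the file header) on mm10 (GRCm38) with a YFP sequence added. A later Cell Ranger version is named in the study's supplementary methods, so the matrix used there may differ. The study's methods removed cells under 200 genes and doublets downstream; the deposited matrix still held gene-poor barcodes, and no doublet caller was run here.

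The members and gene lists were chosen with earlier results of these data known. Barcodes were chosen by hemoglobin share and split by genes detected, embryonic share of beta-like globin, and, after values were seen, by counts of 14 erythroid genes and 53 markers of other cells. UMIs were summed over each group, scaled to 1000000 UMIs outside 10 globin genes. Ratios had 5 added to both values and were taken over 13543 genes with at least 50 UMIs in the library. A gene was called higher or lower at 2-fold. The text names the 15 largest ratios upward and the 10 downward among genes with 20 UMIs in the pair, beside fixed list members. Of 225 genes on 23 lists, 224 were found (7 histone genes by Ensembl identifier) and 1 erythroid gene was not analysed here. Single-gene results of a few list members and named genes are not reported here, while list counts include them. Depth ran from 501 to 143197 UMIs per barcode (median 10766). With 1 library there was no test. Intervals are exact Poisson for levels and Clopper-Pearson for shares, and counts of 0 were bounded with a floor of 3 UMIs over the group. Thinning used 500 or 2000 UMIs per barcode and a fixed seed. Promoter sequences came from RefSeq on GRCm38.p6. The ratio step was tested on simulated data for the gene-rich comparison (13552 genes). It called 100% of the 100 genes raised and the 100 lowered 4-fold. These were all drawn from genes above 100 per 1000000 UMIs, so scarcer genes were not tried. Python 3.11.15, numpy 2.4.6, pandas 2.3.3, scipy 1.17.1 and matplotlib 3.10.9 were used. Alternatives were other hemoglobin and gene limits, scales, filters and globin sets.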

Additional observations from a re-analysis of the deposited data

How the results depend on the processing

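No paired analysis was possible because there was 1 library and no test. The embryonic share of beta-like globin (16.1%) was 15.7% with a hemoglobin limit of 10%, 15.2% at 50%, 5.69% when the barcodes were chosen on the 4 adult globins, and 19.5% as a mean over barcodes. The alpha share (27.1%) was 27.0%, 27.3%, 27.2% and 28.1% under the same settings. The mitochondrial share of gene-poor barcodes (0.961%) was 0.925% below 100 genes. Their share of non-globin UMIs (14.6%) was 8.58% without the 3 barcodes holding most mitochondrial UMIs, left out after seeing the data. Hemoglobin in other barcodes (0.163%) was 0.0299% below a share of 10% and 0.0196% below 1%, the latter limit chosen after seeing the data. Counts of genes between gene-rich hemoglobin-rich and other gene-rich barcodes moved: 530 higher and 1002 lower became 223 and 4264 relative to all UMIs, 828 and 2937 with 1 added in place of 5, 313 and 112 with 20 added (the balance of higher and lower genes turned), 1157 and 5118 at a hemoglobin limit of 50%, and 1322 and 6867 with at most 2 testis markers. In the 29 barcodes with over 2 testis markers and under 9 erythroid genes, chosen after seeing the data, 285 were higher. The number of hemoglobin-rich barcodes was between 379 and 462, but the gene ranges moved more: the 47 gene-rich ones became 15 at a hemoglobin limit of 50%, 83 from 500 genes and 30 from 2000 genes, and below 100 genes the 153 gene-poor ones became 28 and the 240 intermediate ones 365. Depth limits genes with few UMIs, above all in gene-poor barcodes, where 46355 UMIs lay outside globin.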
